A study of Mus musculus with 22 samples.

Results

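Brain RNA of mice mutant in Sgms1 was compared with brain RNA of wild-type mice. The comparison used the 7 libraries whose tissue label is brain, out of 22 in the series, and their genotype labels made 4 of them mutant and 3 wild type. All 7 mice were 17 weeks old and of the C57BL/6J strain, and the series speaks of male mice. Each library was total RNA of 1 mouse on an Illumina bead array, and muscle RNA of the same 7 mice was arrayed too. What kind of mutation Sgms1 carried, whether its probe covers it and which part of the brain was taken are not stated by the labels.

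Sphingomyelin synthase 1, the product of Sgms1, works in the Golgi. It moves the phosphocholine head group from phosphatidylcholine to ceramide and so yields sphingomyelin and diacylglycerol. Sphingomyelin is a main lipid of myelin and of neuronal plasma membranes, where it packs with cholesterol. A second synthase, Sgms2, acts mostly at the plasma membrane, and the related protein Samd8 makes ceramide phosphoethanolamine in the endoplasmic reticulum.

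The tissue label was borne out by the markers. Of 9 astrocyte markers on the array 9 were detected on all 7 brain arrays, and so were 8 of 9 oligodendrocyte markers and 8 of 9 microglial markers. Of 13 neuronal markers 9 were detected on all 7 arrays and 3, Snap25 among them, on none. Median intensity ran from 112 to 143 and 14676 to 15299 probes were detected per array, with wild type 1 the brightest. After the filter on detection 15264 probes of 10396 genes were compared. All levels are log2 normalized intensities and all differences are mutant minus wild type on that scale.

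The targeted gene was examined first, and 2 libraries went against their labels. Sgms1 (probe ILMN_2480682) stood at 8.33, 8.07 and 6.64 in wild type 1 to 3 and at 6.59, 8.14, 6.31 and 6.57 in mutant 1 to 4. The library labelled wild type 3 lay with the mutants, and the library labelled mutant 2 lay with wild type. By label the means were 7.68 ± 0.91 (SD, n = 3) and 6.90 ± 0.84 (SD, n = 4), a difference of -0.78 (SE 0.45, limma adjusted p = 1, exact permutation p = 0.229). In muscle of the same mice Sgms1 followed the labels, at 7.77, 8.09 and 8.12 in wild type and 7.21, 7.50, 7.30 and 7.13 in mutants. The muscle difference of -0.70 (SE 0.13) had a limma adjusted p of 0.0871.

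The main counts, the gene lists described and most genes below are therefore given by label, without these 2 libraries and with their labels exchanged, and a value given in 1 labelling alone names it. The exchange was drawn from the Sgms1 level itself, so the Sgms1 values that follow are a description and no independent test of it. Without both libraries Sgms1 was 3.28-fold lower in mutants (difference -1.71, SE 0.15, limma adjusted p = 0.0031). With the labels exchanged the means were 8.18 ± 0.13 (SD, n = 3) and 6.53 ± 0.15 (SD, n = 4), or 3.15-fold lower in mutants (difference -1.65, SE 0.11, limma adjusted p = 0.000213).

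**Figure D1:**
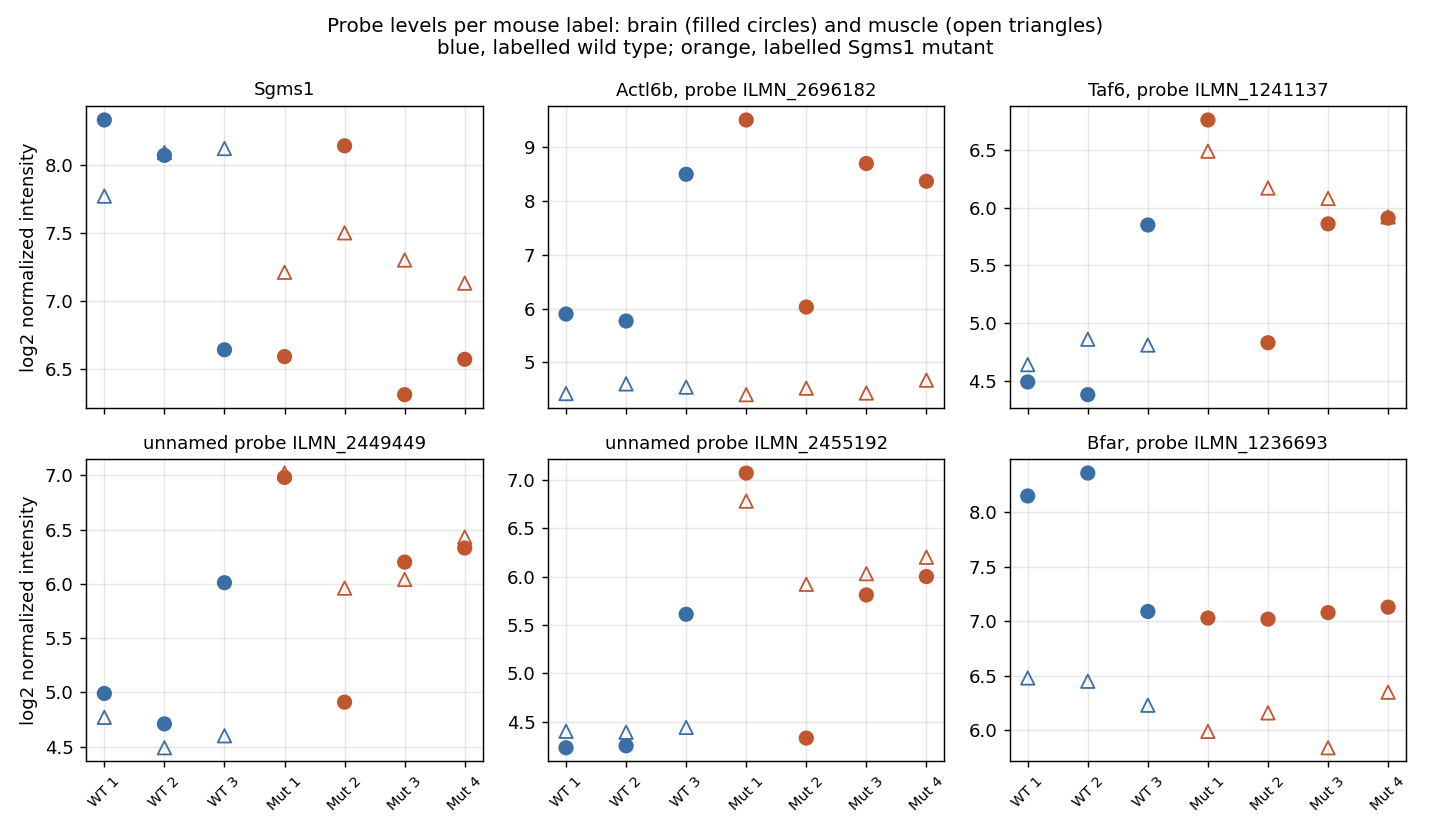
Log2 normalized intensity (vertical axes) of 6 probes in the brain (filled circles) and muscle (open triangles) of each mouse label (horizontal axis), blue for wild type and orange for Sgms1 mutant, each point 1 library. In brain the Sgms1 circle of WT 3 (6.64) sits with the mutants and that of Mut 2 (8.14) with wild type, and the next 4 panels show the opposite order in the same libraries, while the Bfar circles set WT 1 and WT 2 apart from the other 5.

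Muscle libraries of the same mice gave a second reading of the 2 labels. For each brain library, its deviation from the mean of the 7 brain arrays was correlated over the 10582 probes kept in both tissues with the deviation of each muscle library from the muscle mean. These correlations describe the libraries, carry no p, and share the array type. Taking out the tissue mean removes constant probe effects but not probe effects that vary between mice. In 5 of 7 brain libraries the highest correlation was with muscle of the same label, at 0.20 for wild type 1, 0.16 for wild type 2, 0.13 for mutant 1, 0.06 for mutant 3 and 0.11 for mutant 4. Brain wild type 3 correlated best with muscle mutant 2 (0.16, against 0.05 with muscle wild type 3). Brain mutant 2 correlated best with muscle wild type 3 (0.15, against -0.01 with muscle mutant 2). With the 2 brain labels exchanged, 7 of 7 brain libraries correlated best with muscle of the same label. The value of mutant 3 (0.057) was below that of brain wild type 1 with muscle mutant 1 (0.065), whose labels differ.

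The same pairs were seen without the genotype probes. Leaving out Sgms1 and the probes past the threshold in muscle gave 5 of 7 by label and 7 of 7 after the exchange. Leaving out every probe with an unadjusted p under 0.05 for genotype in muscle or, in either labelling, in brain, which kept 8687 probes, gave the same counts, with 0.19 for brain wild type 3 on muscle mutant 2 and 0.18 for brain mutant 2 on muscle wild type 3. Both sets of probes were chosen after the values were seen.

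**Figure D2:**
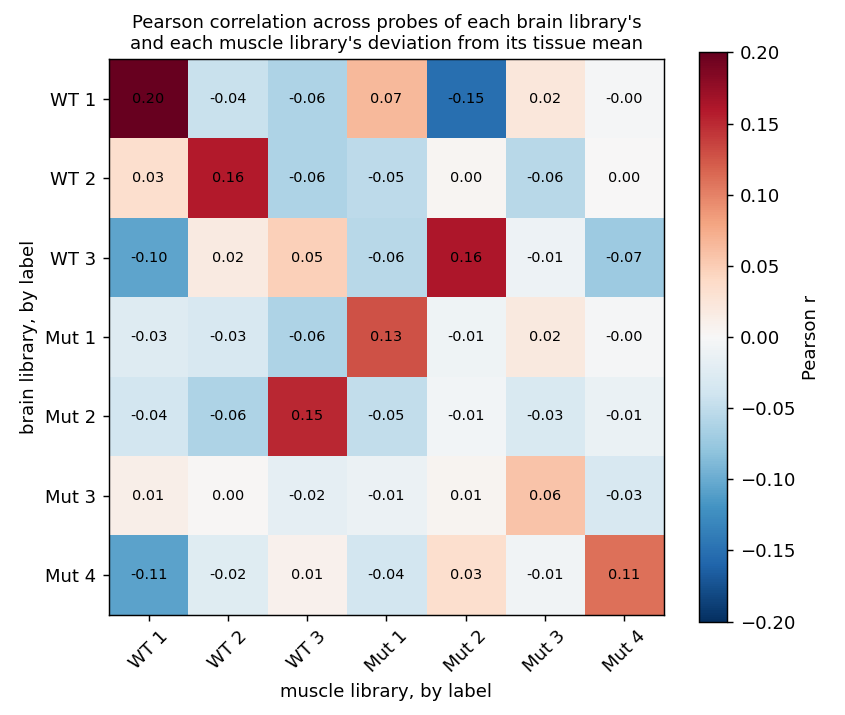
Heat map of Pearson correlations over 10582 probes between each brain library (rows, by label) and each muscle library (columns, by label) of their deviations from the tissue mean; colour and printed values give r. The highest value of a row lies on the diagonal for 5 libraries, and the rows WT 3 and Mut 2 peak at each other's column (0.16 and 0.15).

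Single probes set mice apart in the same way. A probe was taken when 1 muscle library lay at least 1 log2 unit beyond the other 6, a rule added after the data were seen. It was applied to the 10582 probes kept in both tissues and used brain values for that detection filter alone. It gave 31 probes, 23 of them for muscle wild type 3. In brain, 9 of the 31 had 1 library at least 1 log2 unit beyond the other 6 in the same direction, against 22 of all 10582 probes (0.208%). The 6 that belonged to muscle wild type 3 were all found in brain mutant 2. Of the 22 brain probes, 13 set mutant 2 apart and 0 set wild type 3 apart. A match in brain wild type 3 was thus not possible, and mutant 2 was the likeliest place for any match. Muscle mutant 2 had 0 probes apart, so the reverse match could not be looked for. The 3 others of the 9, Arl3 for mutant 1 and Atf4 and Tomm22 for mutant 4, were found in brain of the same label.

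Tmem68, a membrane protein, read 10.43, 9.16 and 10.11 in brain wild type 1 to 3 and 10.27, 4.72, 10.18 and 10.12 in brain mutant 1 to 4. In muscle the low library was wild type 3, at 4.25 against 6.51 to 7.48 in the other 6. Lrrc57, a leucine-rich repeat protein, read 4.35 in brain mutant 2 and 7.63 to 8.11 in the other brain libraries, and 4.49 in muscle wild type 3 and 6.63 to 6.94 in the other muscle libraries. Both genes were thus low in 1 brain and 1 muscle library that carry different labels. Fgfr1op2 (probe ILMN_2615468) behaved alike, at 6.49 in brain mutant 2 and 5.05 in muscle wild type 3. Alad, which encodes an early enzyme of haem synthesis, was high in the same pair, at 10.74 in brain mutant 2 against 9.21 to 9.52 elsewhere in brain, and at 10.36 in muscle wild type 3 against 8.55 to 8.95 elsewhere in muscle.

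Eif2s3y, a translation initiation factor gene on the Y chromosome, was read at 4.22 in brain mutant 2 and 4.26 in muscle wild type 3, not above background in either. In the other libraries it lay between 7.79 and 8.54 in brain and between 7.45 and 8.47 in muscle. Kdm5d and Uty, which are also Y-linked, were detected in brain mutant 2, at 6.24 and 5.44. Both lay within the range of the other brain libraries (5.75 to 6.26 and 4.60 to 5.54). In muscle wild type 3 they were detected at 5.27 and 4.89. Both probes were dim. Among these Y-linked probes only that of Eif2s3y was low there, and the cause was not tested. Arl3, a small GTPase of cilia, was low in mutant 1 in both tissues, at 6.83 in brain against 9.40 to 10.50 and at 4.99 in muscle against 6.54 to 7.36. Tomm22, part of the mitochondrial import pore, was low in mutant 4 in both tissues, at 6.47 in brain and 5.69 in muscle. For these 2 mice the brain and muscle labels went together. The other 17 probes of muscle wild type 3, among them the fat-cell genes Pparg, Cebpa and Cdo1, set no single brain library apart.

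**Figure D3:**
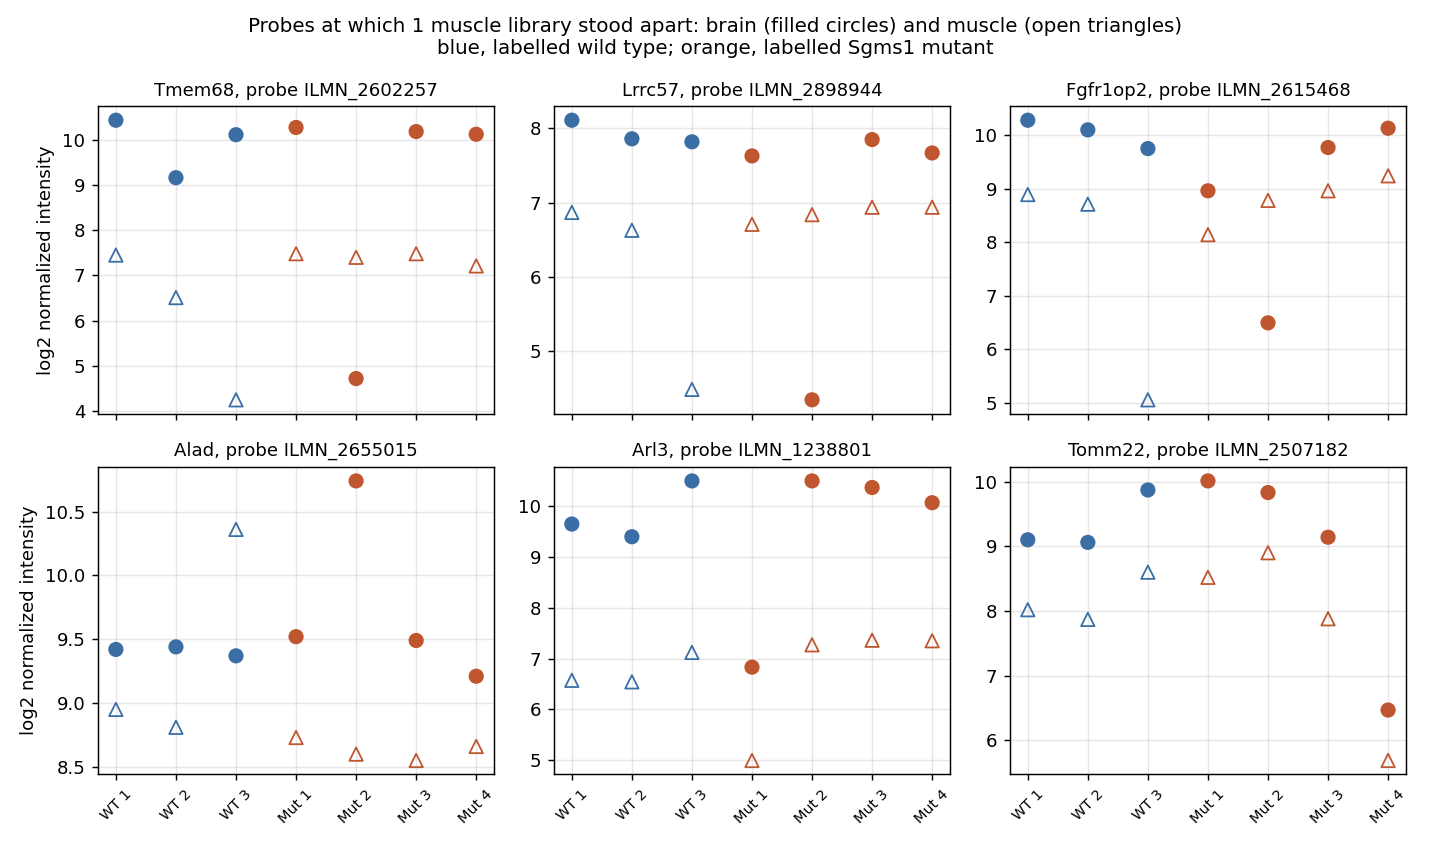
Log2 normalized intensity (vertical axes) in brain (filled circles) and muscle (open triangles) of each mouse label (horizontal axis) for 6 probes at which 1 muscle library stood apart; blue is labelled wild type and orange labelled Sgms1 mutant, 1 point per library. Tmem68, Lrrc57, Fgfr1op2 and Alad set apart brain Mut 2 and muscle WT 3, whereas Arl3 sets apart Mut 1 and Tomm22 sets apart Mut 4 in both tissues.

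By label, no probe passed the threshold between mutant and wild-type brain. In limma 0 of 15264 probes (0%) passed an adjusted p of 0.05, with a smallest adjusted p of 0.9995, and 588 had an unadjusted p under 0.05. The groups did not overlap at 678 probes (4.44%). The 10 named genes of smallest p were Prl2c4, Mcm6, Rnf207, Uhrf1, Zfp24, Lrpprc, Prss8, Spire1, Frzb and Cmc2, and none passed the test. Mcm6, a subunit of the replicative helicase, stood at 5.30, 4.83 and 5.63 in wild type and 5.89, 6.09, 6.13 and 6.10 in mutants, a difference of 0.80 (SE 0.16). Prl2c4, a prolactin family gene, stood at 5.15, 5.30 and 5.05 in wild type and 4.57, 4.75, 4.38 and 4.62 in mutants, a difference of -0.58 (SE 0.12). Both were dim and their groups did not overlap by label; with the labels exchanged both overlapped, with differences of 0.54 and -0.41. Uhrf1, which maintains DNA methylation, differed by 0.43 by label and by 0.17 with the labels exchanged.

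Without the 2 libraries 6 of 15264 probes (0.0393%) passed, 4 higher and 2 lower in 3 mutants than in 2 wild types, and with the labels exchanged 3 (0.0197%) passed, 2 higher and 1 lower. Sgms1, 1 probe of Actl6b and the unnamed probe ILMN_2449449 were called in both settings. Unadjusted p under 0.05 was reached by 903 probes without both and by 1281 (8.39%) with the exchange.

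Actl6b encodes an actin-like subunit of the BAF chromatin remodelling complex of neurons. Its probe ILMN_2696182 stood at 5.90, 5.77 and 8.50 in wild type 1 to 3 and at 9.51, 6.03, 8.70 and 8.37 in mutant 1 to 4. The high and low libraries were the same as for Sgms1, in the opposite order. The difference was 2.87 (SE 0.23, 7.31-fold, limma adjusted p = 0.000478) with the exchange and 3.03 (SE 0.27, limma adjusted p = 0.0031) without both libraries. By label it was 1.43 (SE 0.78, limma adjusted p = 1). The 3 other Actl6b probes, with levels from 5.83 to 9.30, differed by 0.21, 0.29 and 0.35 with the exchange and did not pass, so the shift was that of 1 probe of 4. The probe was not detected in any muscle library.

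Unnamed probe ILMN_2449449 stood at 4.99, 4.71 and 6.01 in wild type and 6.98, 4.91, 6.20 and 6.33 in mutants. The mutant-minus-wild-type difference was 1.51 (SE 0.20, limma adjusted p = 0.0434) with the exchange, and it passed in 8 of 18 settings. In muscle, where it was tested apart, the same probe was higher in mutants by 1.74 (SE 0.23, limma adjusted p = 0.0165).

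Of the 12 of 11391 probes (0.105%) that passed in muscle by label, 11 were kept in brain. By label 0 of the 11 had brain groups without overlap, against 4.44% of all brain probes. With the labels exchanged 5 of the 11 had none, against 8.51%, and 3 of these 5 pointed the same way as in muscle. These 3 were Taf6, ILMN_2455192 and ILMN_2449449. Sncg and Bhlhe40 pointed the other way, at 0.26 and -0.26 in brain with the exchange. The other 6, Rbp7, Map4, Angptl4, Dbp, Hp and Cdsn, had overlapping brain groups in both labellings, and Lep was not kept in brain.

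Taf6 encodes part of TFIID, which helps RNA polymerase II start transcription. Its probe ILMN_1241137 stood in brain at 4.49, 4.38 and 5.85 in wild type and 6.76, 4.83, 5.86 and 5.91 in mutants. In muscle it stood at 4.64, 4.86 and 4.81 in wild type and 6.49, 6.17, 6.08 and 5.92 in mutants. The 4 high brain libraries were wild type 3 and mutants 1, 3 and 4, and the 4 high muscle libraries were those labelled mutant. Its brain difference was 1.52 (SE 0.21, limma adjusted p = 0.0521) with the exchange, just outside the threshold, and its muscle difference was 1.40 (SE 0.14, limma adjusted p = 0.0031). The other Taf6 probe differed by 0.09 in brain with the exchange. Unnamed probe ILMN_2455192 was not above background in brain wild type 1, wild type 2 and mutant 2 and lay between 5.61 and 7.07 in the other 4, at least 2.79-fold higher (limma adjusted p = 0.0687 with the exchange). In muscle it was not detected in wild type and lay between 5.92 and 6.78 in mutants.

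Actl6b and Taf6 lie on the same stretch of chromosome 5 in the gene order of RefSeq assembly GRCm38.p6. From 1 gene before Actl6b to 1 gene after Taf6 there are 32 protein-coding genes, of which 19 were kept in brain. The 28 other probes of these 19 genes differed by -0.45 to 0.35 with the exchange, 3 had an unadjusted p under 0.05 against 8.39% of all probes, and 0 passed in limma. The lowest was Cnpy4, next to Taf6, at -0.45. Around Sgms1 on chromosome 19, with 10 genes taken on each side, 15 probes of 9 kept genes differed by -0.40 to 0.12 with the exchange. The lowest there was Prkg1, a cyclic GMP-dependent protein kinase, at -0.40, the 1 probe of the 15 with an unadjusted p under 0.05, and 0 passed in limma.

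Further probes came near the threshold with the exchange and did not pass. Pkm, the pyruvate kinase of brain and muscle, stood at 12.34, 12.30 and 12.91 in wild type and 12.96, 12.23, 13.07 and 12.93 in mutants. This gave a difference of 0.68 (SE 0.09, limma adjusted p = 0.0521) with the exchange, 0.28 by label and 0.66 without both libraries, and in muscle, where groups did not overlap either, it was 0.37 (SE 0.10, limma adjusted p = 0.246). Osbpl3, a sterol-binding protein of membrane contact sites, stood at 8.40, 8.27 and 7.77 in wild type and 7.39, 8.22, 7.44 and 7.53 in mutants. This gave a difference of -0.77 (SE 0.11, limma adjusted p = 0.0687) with the exchange, -0.50 by label and -0.89 without both. Pkm passed in 8 of 18 settings and Osbpl3 in 5 of 18, so their calls turn on the processing. Add1, an actin-capping adducin, differed by -0.62 and the dim Homer1 probe ILMN_2593584 by -0.61 with the exchange, with limma adjusted p of 0.0742 and 0.12; by label they differed by -0.33 and -0.22.

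Of the 6 probes called without the 2 libraries, Bfar, Pdrg1 and Cops8 followed another order. Bfar (probe ILMN_1236693), a membrane protein that regulates apoptosis, stood at 8.15, 8.36 and 7.09 in wild type 1 to 3 and at 7.03, 7.02, 7.08 and 7.13 in mutant 1 to 4. Pdrg1, a DNA damage-regulated gene, stood at 8.12, 8.32 and 9.35 in wild type and between 9.26 and 9.45 in mutants. Cops8, a subunit of the COP9 signalosome, stood at 9.43, 9.28 and 10.50 in wild type and between 10.30 and 10.40 in mutants. At all 3 probes wild type 1 and wild type 2 lay apart from the other 5 libraries, mutant 2 included, so that neither labelling separated the groups. Their differences of -1.18, 1.09 and 0.99 without both libraries (limma adjusted p = 0.0232, 0.0363 and 0.0461) compare 3 mice with only 2. With the exchange the differences were -0.76, 0.69 and 0.70 and none passed.

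Muscle of the same mice showed this order for Pdrg1 and Cops8. Pdrg1 stood there at 8.33 and 8.35 in wild type 1 and 2 and between 9.44 and 9.73 in the other 5. Cops8 stood at 8.74 and 8.71 in those 2 and between 9.57 and 9.71 in the other 5. A second Bfar probe, ILMN_2987995, ran opposite to the first in brain, and in muscle it stood at 7.26 and 7.40 in wild type 1 and 2 and between 8.32 and 8.69 in the rest. At Pdrg1, Cops8 and this Bfar probe, wild type 1 and wild type 2 thus stood apart from the other 5 mice in both tissues.

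The gene lists were read next, with 1 probe per gene. By label 372 of 10396 genes (3.58%) had an unadjusted p under 0.05, without the 2 libraries 561 (5.40%) and with the exchange 825 (7.94%). The median difference of all genes was 0.01 by label and 0.01 with the exchange. Apart from Sgms1 in the 2 changed settings, 0 list members passed in limma over all probes in any of the 3 settings.

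In sphingomyelin metabolism no measured gene other than Sgms1 passed. Of 11 listed genes of sphingomyelin synthesis and hydrolysis 8 were measured. With the exchange 1 was higher and 1 lower at an unadjusted p under 0.05, against 7.94% of all genes. The lower was Sgms1 itself, from which the exchange was drawn, and the higher was Smpd3. Sgms2 lay between 4.43 and 5.02 and Samd8 between 4.86 and 5.30, near background, with exchange differences of 0.00 (SE 0.13) and -0.16 (SE 0.11). Smpd3, the neutral sphingomyelinase enriched in neurons, stood at 7.96, 8.27 and 8.35 in wild type and 8.33, 8.19, 8.61 and 8.42 in mutants, a difference of 0.29 (SE 0.11, limma adjusted p = 0.552) with the exchange, 0.19 by label and 0.34 without both. The neutral sphingomyelinase gene Smpd2 had groups without overlap by label, at 6.42 to 6.47 in wild type and 6.03 to 6.18 in mutants, and overlapped after the exchange.

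Genes of the substrates and neighbouring pathways showed small differences. Of 19 listed genes of ceramide synthesis and transport 14 were measured, with a median difference of -0.01 by label and 0.00 with the exchange. Ugcg, which makes glucosylceramide from ceramide, differed by 0.26 (SE 0.11) with the exchange and by 0.04 by label. With the exchange 0 of its 17 fellow measured members of the ganglioside list had an unadjusted p under 0.05 (7.94% of all genes). By label 2 of the 18 members had (3.58% of all genes), both higher, and without both libraries 1 had (5.40%). Pcyt1a, the regulated enzyme of phosphatidylcholine synthesis, differed by -0.35 (SE 0.11, limma adjusted p = 0.516) with the exchange, -0.25 by label and -0.41 without both. In the myelin list of 12 measured genes the median was -0.06 by label and -0.07 with the exchange, and Mbp lay between 13.90 and 14.04 in all 7 libraries. Of 17 measured genes of cholesterol synthesis 15 were higher with the exchange, against 52.6% of all genes, with a median of 0.12; the same list had 12 of 17 higher by label, against 52.3% of all genes, with a median of 0.08, and 15 of 17 without both, against 52.8%, with a median of 0.15. With the exchange Fdps and Hmgcs1 were among the higher genes at 0.28 (SE 0.10) and 0.21 (SE 0.09), while Tm7sf2, a sterol reductase gene, was at -0.29 (SE 0.11). By label these 3 stood at 0.01, 0.15 and -0.04.

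Of 57 genes measured in the 5 sphingolipid lists, 6 had groups without overlap by label, against 4.44% of all probes, and 8 with the exchange, against 8.51%. The 8 were Sgms1, from which the exchange was drawn, and Smpd3, Sptlc1, Kdsr, Glb1, Gm2a, Psap and St8sia3. The 6 were Smpd2, St3gal5, Neu3, Fa2h, Cers4 and Sptlc2; all 6 overlapped after the exchange, and none passed (limma adjusted p = 1 by label for each). St3gal5, the sialyltransferase that makes ganglioside GM3, stood at 9.42, 9.69 and 9.75 in wild type and 9.83, 9.84, 10.06 and 9.98 in mutants, a difference of 0.30 by label and 0.25 with the exchange. Neu3, a plasma membrane sialidase, differed by 0.25 by label and -0.01 with the exchange. Of the 18 measured ganglioside genes 16 were higher by label (52.3% of all genes), 15 without both libraries (52.8%) and 11 with the exchange (52.6%), with medians of 0.06, 0.09 and 0.05. Fa2h, which hydroxylates the fatty acids of myelin galactolipids, stood at 10.26, 10.26 and 10.21 in wild type and 9.90, 10.10, 9.83 and 10.13 in mutants, a difference of -0.25 by label and -0.19 with the exchange. All 5 measured genes of galactosphingolipid enzymes were lower by label, where 52.3% of all genes were higher, with a median of -0.06. Arsa and Galc were among them at only -0.01 and -0.03. With the exchange 4 of 5 were lower, where 52.6% of all genes were higher. Cers4, a ceramide synthase, and Sptlc2, a subunit of the first enzyme of sphingolipid synthesis, differed by -0.27 and -0.34 by label and by -0.15 and -0.05 with the exchange.

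**Figure D4:**
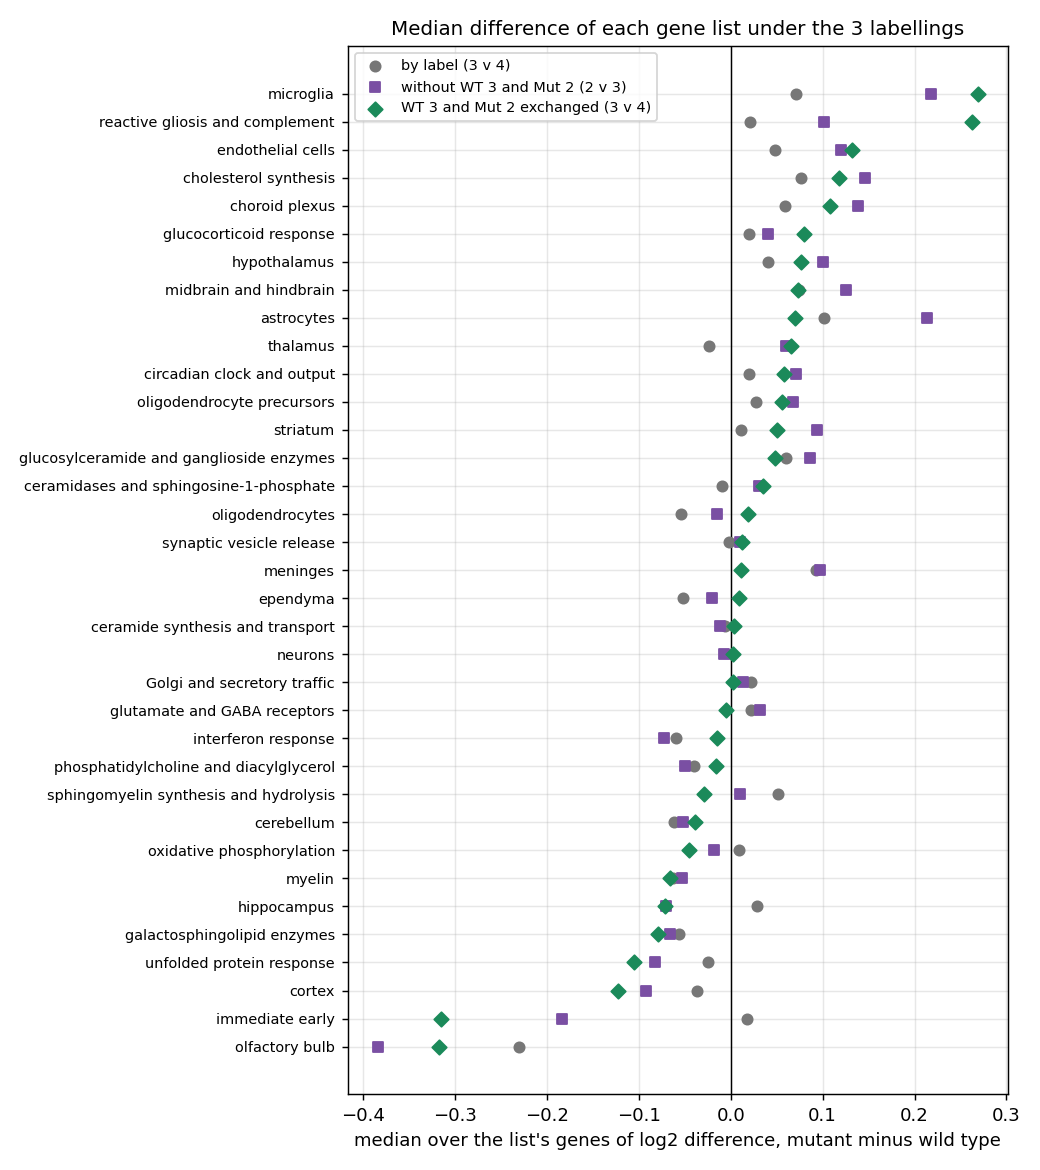
Median over the genes of each list of the log2 difference, mutant minus wild type (horizontal axis), for the 35 lists with at least 5 measured genes (vertical axis), by label (grey circles), without WT 3 and Mut 2 (purple squares) and with these 2 exchanged (green diamonds). The pathway medians lie between -0.06 and 0.08 by label, and with the exchange microglia and gliosis lie highest (0.27 and 0.26) and immediate early genes and olfactory bulb lowest (-0.32 for both).

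Among lists of at least 5 measured genes, those of glial and immediate early genes had the medians that differed most between the labellings. All values come from bulk tissue, in which fewer cells of a type and less RNA per cell cannot be told apart. Of 14 measured genes of reactive gliosis and complement 13 were higher with the exchange, with a median of 0.26, against 52.6% of all genes and a median of 0.01. Of these 14, 7 had an unadjusted p under 0.05 (7.94% of all genes), 6 higher and 1 lower. By label the median was 0.02 and 0 of the 14 reached that p, and without both libraries the median was 0.10. Of 8 measured microglial genes, 3 of which are complement genes of the first list, 8 were higher with the exchange, with a median of 0.27 and 5 at an unadjusted p under 0.05, against a median of 0.07 by label and 0.22 without both. These counts are a description of lists, and no gene in them passed in limma with all 7 libraries.

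Serpina3n, a protease inhibitor made by reactive astrocytes, stood at 7.89, 8.02 and 10.23 in wild type and 8.21, 7.85, 10.34 and 10.28 in mutants. It was high in 3 libraries, wild type 3, mutant 3 and mutant 4, and mutant 1 lay with the low ones. The difference with the exchange was 1.84 (SE 0.42, limma adjusted p = 0.375); it was 0.45 by label and 1.65 without both libraries. Over 18 settings with the exchange the difference ran from 0.32 to 2.36 and passed in 1, that without mutant 1 (2.36, limma adjusted p = 3.94e-06). The lowest value came from a block for replicate number, which with the exchange compared mutant 1 with wild type 1 alone. C1qb, a chain of the first complement component made by microglia, stood at 8.87, 9.10 and 9.32 in wild type and 9.41, 8.92, 9.53 and 9.33 in mutants. With the exchange its difference was 0.43 (SE 0.10, limma adjusted p = 0.375). Gfap, the astrocyte intermediate filament, stood at 7.95, 7.67 and 8.31 in wild type and 8.03, 7.65, 8.22 and 8.08 in mutants. Its difference with the exchange was 0.40 (SE 0.11, limma adjusted p = 0.481). After the exchange the groups of both genes did not overlap, as at 8.51% of all probes. By label C1qb and Gfap differed by 0.20 and 0.02, and without both by 0.44 and 0.30. Trem2, a microglial lipid receptor, and Aif1, a microglial calcium-binding protein, differed by 0.40 (SE 0.14) and 0.31 (SE 0.12) with the exchange, by 0.22 and -0.05 by label and by 0.41 and 0.16 without both. Cx3cr1, Tmem119 and P2ry12, markers of resting microglia, differed by 0.04, 0.10 and 0.10 with the exchange. By label they differed by -0.06, -0.07 and 0.21, and without both by -0.03, 0.02 and 0.20. The 9 astrocyte markers had a median of 0.07 with the exchange, 0.10 by label and 0.21 without both.

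Immediate early genes are transcribed within minutes of neuronal activity. With the exchange 3 of 17 measured members were higher, against 52.6% of all genes, with a median of -0.32, and 7 had an unadjusted p under 0.05 (7.94% of all genes), 6 lower and 1 higher. By label the median was 0.02 and 0 reached that p (3.58%). Without both libraries the median was -0.18 and 5 reached it (5.40%), 4 lower and 1 higher. Egr4 stood at 8.95, 8.99 and 8.39 in wild type and 8.51, 9.22, 8.85 and 8.52 in mutants, a difference of -0.49 (SE 0.13, limma adjusted p = 0.451) with the exchange. Fos stood at 8.86, 9.29 and 8.46 in wild type and 8.41, 9.11, 8.58 and 8.93 in mutants. Its difference with the exchange was -0.49 (SE 0.14, limma adjusted p = 0.481). Fos groups overlapped even after the exchange, since mutant 4 exceeded wild type 1. Jun, the partner of Fos in the AP-1 factor, ran the other way with the exchange, at 0.41 (SE 0.09, limma adjusted p = 0.375). By label Egr4, Fos and Jun differed by 0.00, -0.11 and 0.12, and without both Egr4 and Fos differed by -0.34 and -0.43. The mean level of the list was highest in wild type 2 (8.22) and mutant 2 (8.17) and between 7.75 and 7.93 in the other 5. Red-cell genes were also highest in these 2 libraries, with list means of 9.49 and 9.32 against 8.74 to 8.98, and their part in the result was not tested.

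**Figure D5:**
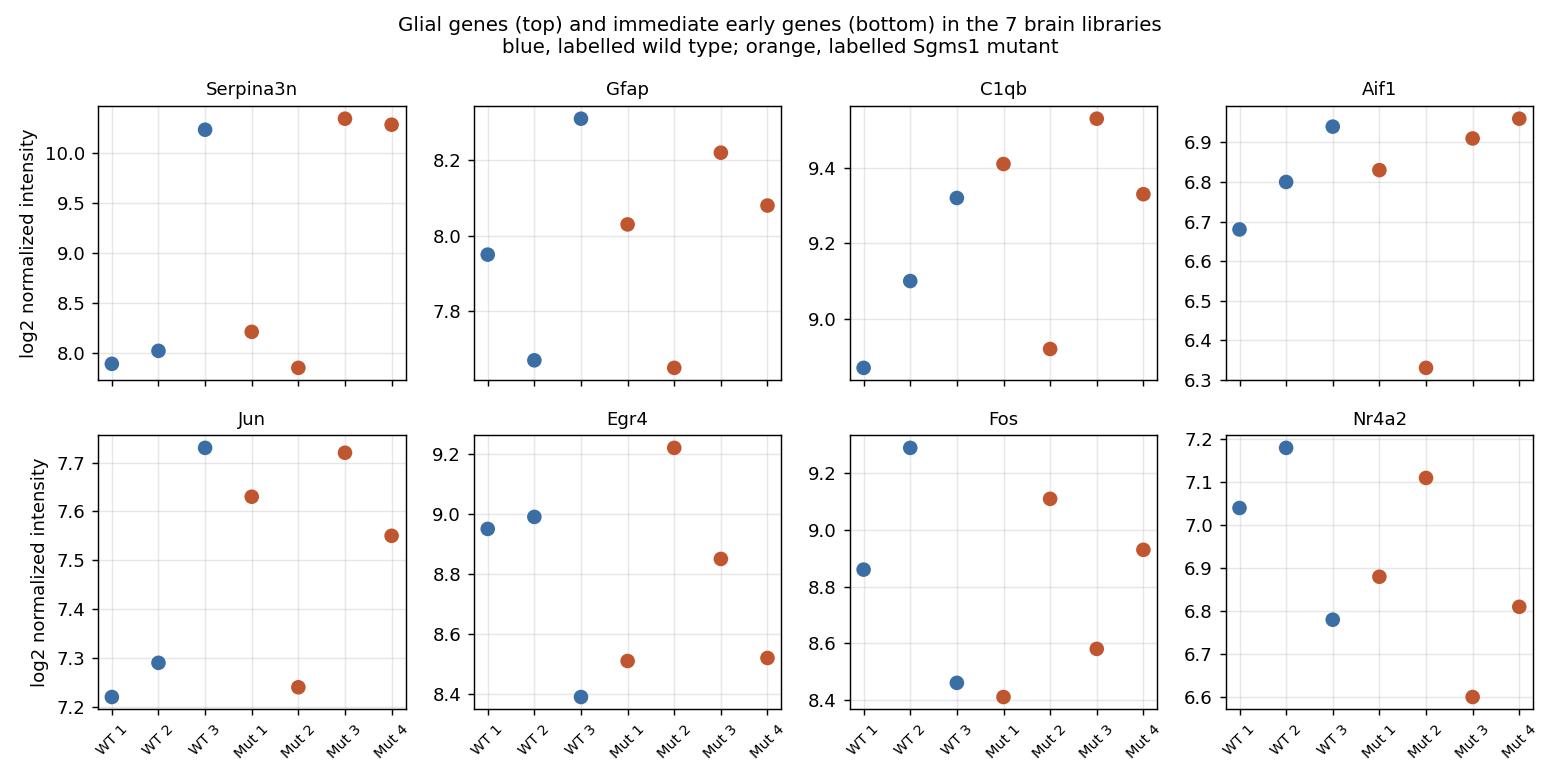
Log2 normalized intensity (vertical axes) of 4 glial genes (top) and 4 immediate early genes (bottom) in the 7 brain libraries (horizontal axis), blue for labelled wild type and orange for labelled mutant, 1 point per library. Serpina3n is above 10 in WT 3, Mut 3 and Mut 4 and at 7.85 to 8.21 in the other 4, and Jun is higher and Egr4 lower in WT 3, Mut 1, Mut 3 and Mut 4 than in the other 3.

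Of 17 measured clock genes 5 had an unadjusted p under 0.05 with the exchange (7.94% of all genes), 2 higher and 3 lower, and 0 by label (3.58%). Without both libraries 2 reached that p (5.40%), both higher, and 0 of the lower ones did. The list medians were 0.06 with the exchange, 0.02 by label and 0.07 without both. Ciart, a clock repressor, differed by 0.50 (SE 0.13), Per3 by 0.58 (SE 0.19), Arntl by -0.29 (SE 0.09), Nfil3 by -0.27 (SE 0.10) and Bhlhe40 by -0.26 (SE 0.09), all with the exchange. By label Ciart, Per3 and Arntl differed by 0.26, 0.38 and -0.12. None passed over all probes, and the labels state no time of day for the sampling. The genes of synaptic vesicle release, glutamate and GABA receptors, Golgi traffic and oxidative phosphorylation had medians between -0.05 and 0.02 in both labellings.

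Genes of other tissues stood high in some libraries of a group and not in the rest. Gh, the pituitary growth hormone gene, stood at 4.81, 14.02 and 12.17 in wild type and 5.72, 5.29, 5.80 and 4.29 in mutants. It was high in wild type 2 and wild type 3 only, as were Prl, Pomc and Cga, the other measured pituitary members. By label the list mean thus ran from 4.54 to 11.85 in wild type and from 4.52 to 5.10 in mutants, and without wild type 1 Gh and Prl passed at differences of -7.82 and -7.43 (limma adjusted p = 0.000586 for both). With all 7 libraries Gh differed by -5.06 by label and by -1.05 (SE 2.2) with the exchange, which puts wild type 2 and wild type 3 in different groups. Skeletal muscle genes were highest in mutant 2, with a list mean of 7.42 against 5.77 to 6.46 in the others. Within the brain, olfactory bulb genes had list means from 5.16 in mutant 3 to 6.41 in wild type 2, with mutant 1 at 6.28. Doc2g, expressed in the bulb's projection neurons, ran from 4.61 to 7.17 in mutant 3 and wild type 2. Of 7 measured bulb genes 6 were lower by label (median -0.23), where 52.3% of all genes were higher. All 7 were lower without both libraries (median -0.38) and with the exchange (median -0.32), where 52.8% and 52.6% of all genes were higher. None passed in limma. The part of these pituitary, muscle and bulb genes in the differences above was not tested.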

How the data were processed

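Per the labels, Trizol extracts were purified with RNeasy and turned into biotin-labelled cRNA with the Ambion MessageAmp kit. The authors deposited a linear, non-normalized intensity and a detection p-value for each probe on every array, as the file headers name them. GenomeStudio 2011.1 is named in the submitters' processing notes, with no account of the steps. The authors' deposited processed values served as an alternative. In R 4.3.3, limma 3.58.1 (function neqc: normexp background, offset 16, quantile step, log2) normalized the 7 brain arrays. Probes with a detection p under 0.05 on at least 3 arrays were fitted with lmFit and eBayes, with two-sided p-values adjusted by Benjamini-Hochberg over all probes kept and a threshold of 5%. Array values have no read depth, and the number of arrays limits precision: 3 against 4 cannot give an exact two-sided p below 0.0286. Where a group was not detected, the fold is taken from the lowest signal detected on each array and is written "at least".

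Mouse numbers in the labels tie each brain library to 1 of 7 mice and to its muscle library. Of 25697 probes, 23978 had 1 symbol, 0 several and 1719 none in the platform annotation, and 0 symbols changed through RefSeq. Lists used the probe of highest mean per gene. The members, the 39 gene lists and the exchange of 2 labels were chosen with earlier results of these data known. The rule for naming took Sgms1, Sgms2, Samd8, up to 12 rises and 12 falls past the threshold in each of the 3 labellings, genes of smallest p by label until 10 were named, every named probe past the threshold in muscle and up to 4 members of smallest p per list and labelling and the brightest marker of each cell or region list, of which the text describes some; the lists' other members, the exchange's near misses and the probes that set 1 library apart were chosen after their values were seen. The code was tested on simulated data. Alternatives were no background correction, an offset of 50, median scaling, joint normalization of 22 arrays, the processed values (log2 after adding 16), no or a stricter detection filter, array weights, trend and robust fitting, a block for replicate number and leaving out each library. Same-numbered libraries deviated from their group means with correlations of -0.01, 0.14 and 0.13. Numbers 2 and 3 each hold a doubted library, so these values cannot settle whether the numbers mark pairs. The main fits did not read them as pairs.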

Additional observations from a re-analysis of the deposited data

Results flagged for a closer look

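Among 57 probes and list means checked in the 4 libraries labelled mutant, 4 had 1 library far from the other 3, and chance alone flags about 1 in 20 such groups. Sgms1 was at 8.14 in mutant 2, against 6.31 to 6.59 in the other 3. The mean of the sphingomyelin synthesis and hydrolysis list, which holds Sgms1, was 7.33 in the same library and 7.09 to 7.12 in the others. Mutant 2 was doubted because of its Sgms1 level, so both flags restate that level and cannot be set against the chance rate. Prss8, a membrane serine protease with no call in any setting, was at 4.63 in mutant 4 and between 4.33 and 4.38 in the rest. The mean of the cerebellar list was 8.19 in mutant 3 and between 8.45 and 8.49 in the rest.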

How the results depend on the processing

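By label the count of probes past the threshold was 0 in 10 settings of processing or spread, 6 without the 2 doubted libraries and 3 with the labels exchanged, and it ran from 0 to 5 when 1 library was left out. Without wild type 1 the 2 calls were Gh and Prl, and without wild type 3 the 5 were 2 probes of Bfar, Pdrg1, Cops8 and Fv1. Sgms1 by label was -0.78 and stood at -1.71 and -1.65 in those 2 changed labellings, and at -1.30 to -0.45 with 1 library left out. Without the 2 doubted libraries the main count of 6 was 11 with an offset of 50, 24 with median scaling, 11 with joint normalization, 2 on the processed values, 0 with no detection filter (1500 at an unadjusted p under 0.05), 12 with the stricter filter and 27 with trend and robust options, and 0 to 17 when 1 more library was left out. Sgms1 there kept its difference of -1.71 with no detection filter at a limma adjusted p of 0.179, and ran from -1.84 to -1.58 with 1 more library left out, losing its call without wild type 1 or wild type 2, where the lone wild type is assumed to vary like the mutants. With the labels exchanged the main count of 3 was 6 with median scaling, 5 on the processed values, 5 with the stricter filter and 6 with trend and robust options, and 2 to 12 with 1 library left out; it was 12 without mutant 1 and 11 without mutant 2. There Actl6b passed in 18 of 18 settings, and without the 2 libraries it passed in 11 of 15. Sgms1 passed in 17 of 18 and in 12 of 15. Its level chose the 2 libraries, so its counts are a description and no test of the exchange.

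By label the replicate block gave 0 calls and Sgms1 at -0.67. With the exchange, replicate number 1 alone held both genotypes, so the block compared mutant 1 with wild type 1 only. Its values, counted among the 18 settings, are thus a contrast of single mice. Sgms1 stood there at -1.74 and Actl6b at 3.61. In the same contrast Serpina3n stood at 0.316, against 1.84 over all 7 libraries, Samd8 at 0.075, Ugcg at -0.041, Cplx2 at 0.087 and Spink8 at 0.009. Samd8 by label turned from 0.033 to -0.023 without wild type 3, -0.026 without mutant 2, -0.083 without both and -0.156 with the exchange, and ran from -0.026 to 0.122 with 1 library left out. No paired analysis was possible without the 2 libraries because no residual degrees of freedom were left. Median scaling moved the median of all probes to -0.05 by label, -0.08 without both and -0.06 with the exchange. The best-correlated muscle library was that of the same label for 5 of 7 in each of 6 alternatives. The planned slide block could not be fitted for lack of slide names. Apart from the replicate block with the exchange, the cause of these shifts was not tested.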
